A study of Homo sapiens with 7 samples.

Results

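The SMAD and ID transcription regulators were described as 10 genes: the signal-carrying SMAD2, SMAD3 and SMAD4, the inhibitory SMAD6 and SMAD7, the co-repressor SKIL, and ID1, ID2, ID3 and ID4. They were taken by gene symbol from the expression table, 1 row per symbol. Of the 10 genes, 9 had a row among the 16686 symbols of the table and 7 reached the level needed for testing. ID4 was not analysed here. The rule used symbols only and no measured value, but the members were chosen with earlier results of these data known.

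RNA-seq was made from N/TERT2G cells, a line of human keratinocytes immortalized with telomerase. The siYT cells (4 libraries, A to D) had received pooled siRNAs against YAP1 and TAZ, the protein of the WWTR1 gene. The siCON cells (3 libraries, A to C) had received a non-targeting siRNA. Both were transfected at 8 pmol per cm2 and harvested 48 h later. All libraries came from 1 cell line, knockdown left part of the YAP1 and WWTR1 RNA in place, and the samples cannot separate the loss of YAP1 from that of TAZ. Nothing in the labels says whether the libraries came from separate cultures, and each p-value therefore reflects library-to-library spread alone, which may be technical.

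YAP1 and TAZ are transcriptional co-activators that bind DNA through TEAD factors and are restrained by the Hippo pathway. Receptors for TGF-beta and activin phosphorylate SMAD2 and SMAD3, receptors for BMPs phosphorylate SMAD1 and SMAD5, and both kinds of SMAD enter the nucleus with SMAD4, where SMAD6, SMAD7 and the SKI family limit the response. ID proteins carry a helix-loop-helix region but no DNA-binding region, so they hold E proteins away from their E-box sites; ID1, ID2 and ID3 are classic BMP-SMAD target genes.

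The values are a library-normalized signal per gene (trimmed mean of M values, TMM), so levels of different genes are set side by side only per kb of transcript. The libraries summed to 866098 to 955106 and stood for about 20700000 to 23900000 reads each. The knockdown itself was seen in every siYT library: YAP1 had 64.5 to 76.2 in siYT and 231 to 258 in siCON cells, and WWTR1 had 4.90 to 6.30 in siYT and 34.4 to 37.3 in siCON cells. All 8 keratinocyte markers were present throughout, with KRT5 at 22323 ± 1240 in siYT (SD, n = 4) and 20952 ± 290.2 in siCON cells (SD, n = 3). At the thresholds given below, 3 of the 8 (TP63, ITGA6 and COL17A1) were called upward and 1 (ITGB4) downward. KRT5 was not called. Of 6 endothelial markers 3 had a row, and their sum was 24.2 to 34.4 in siYT and 3.26 to 4.15 in siCON cells. All 3 were higher in every siYT library: KDR averaged 26.4 in siYT and 3.27 in siCON cells, CLDN5 was at 1.13 to 1.68 in siYT and 0.0461 to 0.0901 in siCON cells, and VWF at 0.545 to 0.941 in siYT and 0.309 to 0.461 in siCON cells. PECAM1, CDH5 and TEK had no row; of 6 melanocyte markers only PMEL had a row, at 1.30 in siYT and 1.22 in siCON cells. Of 6 immune cell markers 2 had a row, and their sum was 49.2 to 60.0 in siYT and 47.8 to 54.2 in siCON cells. Summed fibroblast markers (6 of 8 with a row, mostly COL1A1 and DCN) were 188 to 194 in siYT and 233 to 261 in siCON cells. Of the 5 fibroblast markers tested, 1 (COL1A2) was called upward and 3 (DCN, COL3A1 and THY1) downward, while COL1A1 was not called. COL3A1, at 0.272 to 0.392 in siYT cells, reached the level needed for testing only through the siCON libraries. The part of all these markers in the results was not tested.

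SKIL and ID1 were the members that fell after YAP1/TAZ knockdown, to 38.2 ± 4.40 and 10.7 ± 0.484 in siYT cells, against 60.4 ± 5.33 and 17.6 ± 0.695 in siCON cells (mean ± SD, n = 4 and n = 3). ID3 was slightly higher in siYT cells, and the scarce ID2 transcript was about 5.07-fold higher. SMAD2 and SMAD7 were lower by less than the fold threshold, and no difference was detected for SMAD3 or SMAD4 in the values as deposited. SMAD6 was too scarce to test. In bulk RNA, fewer cells making a transcript and less of it per cell cannot be told apart.

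A gene was called when limma's adjusted p was under 0.05 and the fold was at least 1.5, on log2(value + 0.5), which understates the change of low genes. Of the 7 tested members 2 were called, against 27.4% of the 13072 genes tested. Both were called downward, a direction that held for 13.2% of all genes tested, while 0 were called upward with limma, against 14.1% of all genes, and 1 member (ID3) was higher at an unadjusted p under 0.05. At any fold, 5 of the 7 passed the adjusted p, against 69.6% of all genes, and 5 of the 7 had no overlap between siYT and siCON libraries, against 68.7% of all genes. With 7 genes these counts do not set the members apart as a group, and the downward count was 0 with libraries at equal totals and 1 with the length trend removed. The median log2 fold change of the 7 was -0.20, beside 0.00328 over all genes tested.

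**Figure D1:**
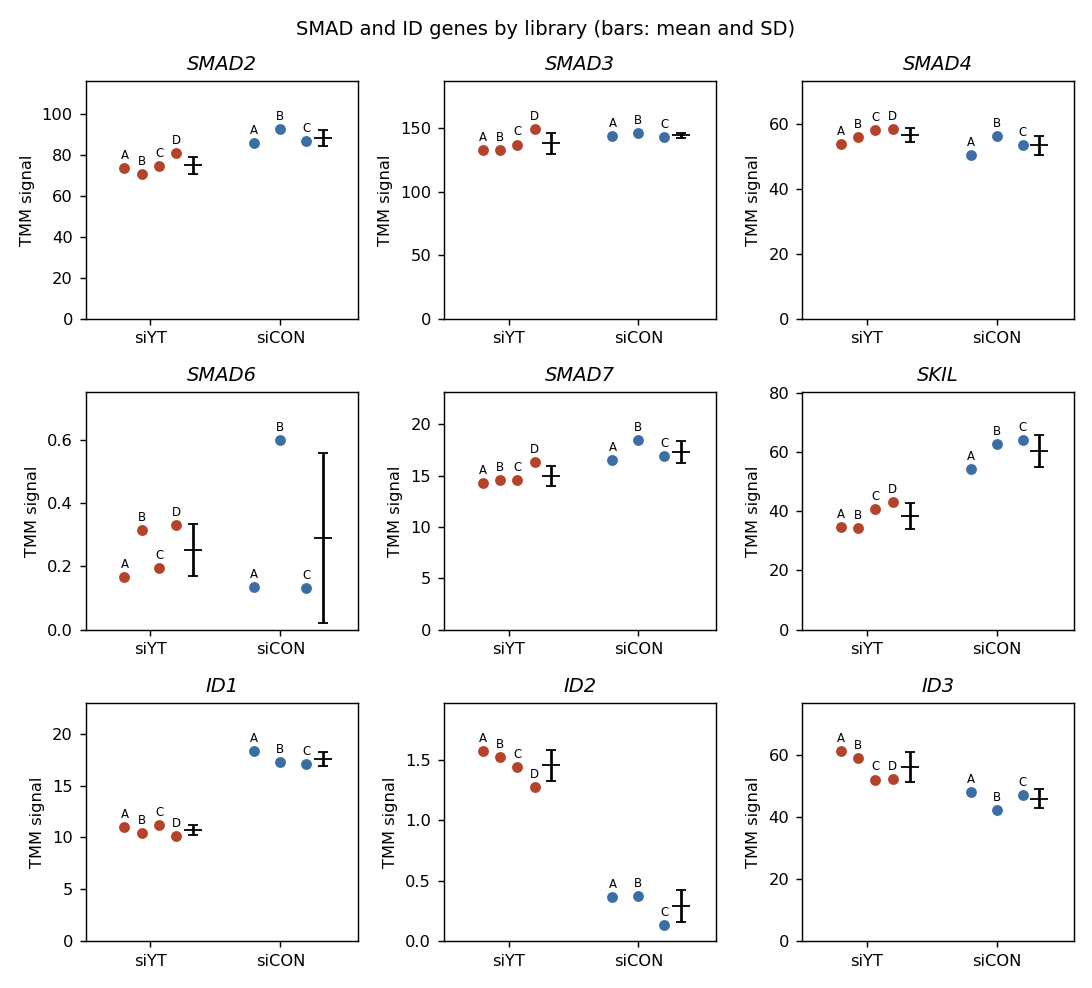
TMM signal (y axis, linear, from 0) of the 9 SMAD and ID genes with a row, in the 4 siYT and the 3 siCON libraries (points, lettered by library; bars give mean and SD). SKIL and ID1 sit lower in every siYT library, ID2 and ID3 sit higher, and SMAD3, SMAD4 and SMAD6 overlap between the groups.

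SMAD2 and SMAD3 carry the TGF-beta and activin signal. SMAD2 (chr18:45357922-45457515 on hg19, minus strand) had 73.8, 71.0, 74.7 and 80.9 in the siYT libraries, against 85.8, 93.1 and 86.9 in the siCON libraries. Every siYT library was below every siCON library, by a narrow margin for siYT D. The log2 fold change was -0.24 ± 0.056 (SE), with a limma adjusted p of 0.00133 and was under the fold threshold. With the libraries rescaled to equal totals it was -0.13 and the adjusted p was 0.0571. With the length trend removed it was -0.42 (limma adjusted p 6.64e-06), still under the fold threshold. That correction rests on a canonical transcript length of 34.6 kb.

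SMAD3 (chr15:67356101-67487533, plus strand) is the SMAD of this pair that binds DNA directly in its common form. It had 133, 133, 137 and 150 in the siYT libraries, against 144, 146 and 143 in the siCON libraries. siYT D was the highest of all 7 libraries and the other siYT libraries were the lowest, so the groups overlapped. The log2 fold change was -0.07, with a 95% interval of -0.18 to 0.05 and a limma adjusted p of 0.273, and its sign turned to 0.05 at equal totals. With the length trend removed it was -0.19 (adjusted p 0.00415).

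SMAD4 (chr18:48494410-48611415, plus strand), the partner shared by the TGF-beta and BMP branches, had 53.7, 55.8, 58.0 and 58.5 in the siYT libraries, against 50.2, 56.2 and 53.3 in the siCON libraries. The groups overlapped, since siCON B exceeded siYT A and B. The log2 fold change was 0.08, with a 95% interval of -0.04 to 0.20 and a limma adjusted p of 0.194. It was 0.20 at equal totals (adjusted p 0.00661) and -0.07 with the length trend removed. The row shares 20082 bases of its span with ELAC1 on the same strand. Another protein-coding gene on that strand, ENSG00000267699, covers 90105 bases of the SMAD4 row. Reads of these spans may belong to SMAD4 or to the other gene, and how they were divided was not tested. ELAC1 itself was listed at 3.80 to 6.43 in siYT and 5.12 to 6.01 in siCON cells.

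SMAD7 blocks TGF-beta receptors and recruits ubiquitin ligases to them. It lies on chr18:46446223-46477081 (minus strand) and had 14.2, 14.6, 14.6 and 16.3 in the siYT libraries, against 16.5, 18.5 and 16.9 in the siCON libraries. The siYT libraries were all lower, although siYT D came close to siCON A. The log2 fold change was -0.20 ± 0.076 (SE), with a 95% interval of -0.37 to -0.04 and a limma adjusted p of 0.0254. That p did not hold: it was 0.270 at equal totals and 0.113 without siCON B, and it also passed 0.05 without siYT A (0.0654), B (0.0545) or C (0.0521), or with siYT A and B averaged (0.0550).

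SMAD6 acts mainly against BMP signalling and was near the floor of the table. It (chr15:66994566-67074338, plus strand) was listed at 0.166, 0.314, 0.195 and 0.329 in the siYT libraries, against 0.135, 0.599 and 0.132 in the siCON libraries. These values are 4, 8, 5 and 9 times the lowest value of the siYT library, against 3, 13 and 3 times in the siCON libraries, which is close to a read number. siCON B was the highest and the other siCON libraries the lowest. The difference of the log2 means was -0.03 and changed sign without siCON B (0.24), and no direction could be read at this depth.

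Within a library, the balance between members was given as a ratio, in which a scaling factor common to the library largely cancels. The ratios were taken on log2(value + 0.5), so the cancelling is incomplete for the scarce SMAD6 and ID2. The effect of other scalings on the ratios was not tested. The log2 ratio of SMAD3 to SMAD2 was 0.17 higher in siYT than in siCON cells, and that of SMAD7 to SMAD4 was 0.29 lower, in each case without overlap between the libraries. SMAD7 to SMAD3 was 0.14 lower in siYT cells, also without overlap. In the exact permutation test (two-sided, 35 arrangements) each of these had p = 0.0571, the smallest the design allows, so none can pass 0.05; over the 8 ratios computed the adjusted value was 0.0762. The ratios with the scarce SMAD6 overlapped, with an exact p of 0.40 for SMAD7 to SMAD6 and 0.686 for SMAD6 to SMAD4.

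**Figure D2:**
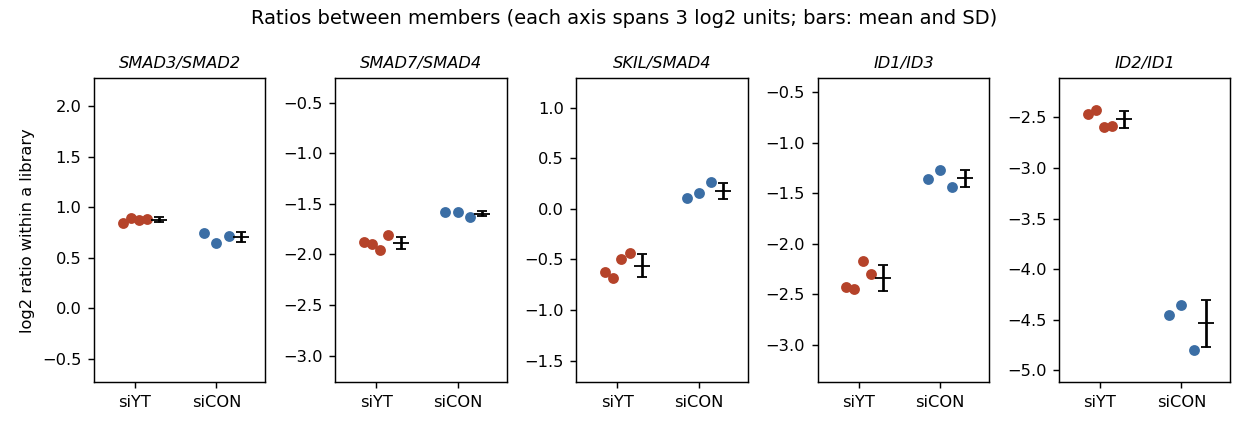
Log2 ratio between 2 members within each library (y axis; every panel spans 3 log2 units) in siYT and siCON libraries (points; bars give mean and SD). The groups are apart in all 5 panels, by 0.17 for SMAD3 over SMAD2 and by 2.02 for ID2 over ID1.

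SKIL encodes SnoN, a co-repressor that sits on SMAD complexes and is itself a TGF-beta-induced gene. It lies on chr3:170075466-170114623 (plus strand) and had 34.6, 34.5, 40.9 and 43.1 in the siYT libraries, against 54.3, 62.8 and 64.1 in the siCON libraries. All siYT libraries were lower with a clear gap, and siYT A and B were lower than C and D. The log2 fold change was -0.65 ± 0.083 (SE), a 1.57-fold decrease with a limma adjusted p of 3.82e-06. The log2 ratio of SKIL to SMAD4 was 0.74 lower in siYT cells, at -0.63, -0.69, -0.50 and -0.44 in the siYT libraries, against 0.11, 0.16 and 0.26 in the siCON libraries (exact permutation p = 0.0571). At equal totals the log2 fold change was -0.54, with an adjusted p of 6.24e-05 but under the fold threshold, so the call was lost. With the length trend removed it was -0.79 (limma adjusted p 3.83e-07).

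SKI, the close relative of SKIL, moved less and the other way: it averaged 70.6 ± 5.88 in siYT and 62.5 ± 3.08 in siCON cells (SD, n = 4 and n = 3), a log2 fold change of 0.17 with a limma adjusted p of 0.0259, and was not called. The difference between the 2 genes was not tested.

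ID1 fell with SKIL. It lies on chr20:30193086-30194318 (plus strand) and had 11.0, 10.4, 11.2 and 10.2 in the siYT libraries, against 18.4, 17.2 and 17.1 in the siCON libraries. The spread within each group was small beside the gap between them. The log2 fold change was -0.69 ± 0.075 (SE), a 1.61-fold decrease with a limma adjusted p of 6.66e-07. ID1 has a short transcript of 983 nt, and the 718 tested genes under 1 kb had a median log2 fold change of -0.42. With the trend on transcript length removed ID1 was at -0.31 (adjusted p 0.00128), and at equal totals at -0.58, and in both cases it missed the 1.5-fold threshold.

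ID3, on chr1:23884409-23886285 (minus strand), encodes a close relative of ID1 from a transcript of nearly the same length, 950 nt. It had 61.3, 58.9, 52.0 and 52.1 in the siYT libraries, against 47.9, 42.2 and 47.1 in the siCON libraries. All siYT libraries were higher, siYT A and B the most. The log2 fold change was 0.29 ± 0.069 (SE), with a limma adjusted p of 0.00156 and a fold of 1.22. With the length trend removed ID3 stood at 0.68, past the fold threshold (adjusted p 2.25e-07).

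ID1 and ID3 thus stood on opposite sides of 0, and the ratio between them depends little on library scaling. The log2 ratio of ID1 to ID3 was -2.43, -2.44, -2.17 and -2.30 in the siYT libraries, against -1.36, -1.27 and -1.43 in the siCON libraries. The groups did not overlap, and the ratio was 0.98 lower in siYT cells (1.97-fold; exact permutation p = 0.0571, adjusted 0.0762).

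ID2, on chr2:8818975-8824583 (plus strand), was scarce in these cells. It had 1.58, 1.53, 1.44 and 1.28 in the siYT libraries, against 0.360, 0.369 and 0.132 in the siCON libraries. Every siYT library was several times above every siCON library. In multiples of the lowest value of a library, close to reads, this was 38, 39, 37 and 35 in siYT, against 8, 8 and 3 in siCON. The mean over the 7 libraries, 0.955, was just under the minimum of 1, so ID2 was not among the tested genes. The difference of the log2 means was 1.33, and the ratio of the means was 5.07. Without the minimum, 16686 genes were tested and ID2 had a limma adjusted p of 1.00e-06. The log2 difference depended on the pseudocount, at 2.07 with 0.1 and 0.60 with 2.

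An antisense gene on the other strand, listed as AC011747.7, covers 3020 bases of the ID2 row and was itself at 0.0392 to 0.256 in siYT and 0.0450 to 0.138 in siCON cells; no source states strand-specific counting, and reads of the pair cannot be told apart. The log2 ratio of ID2 to ID1 was 2.02 higher in siYT cells, without overlap (exact permutation p = 0.0571, adjusted 0.0762). Its size depended on the pseudocount: it ran from 1.22 to 2.78 over the alternatives, and from 1.89 to 2.11 when leaving out a library.

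**Figure D3:**
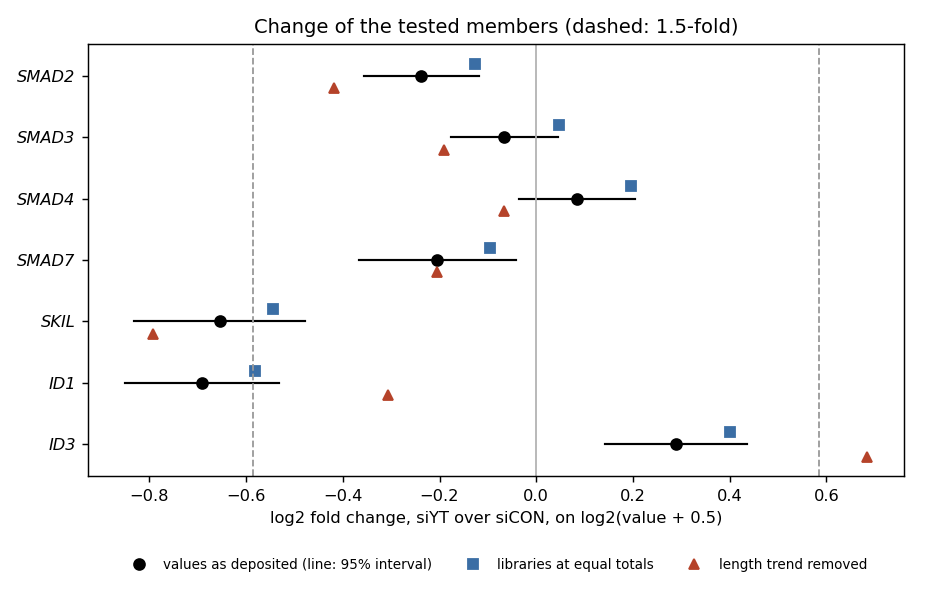
Log2 fold change, siYT over siCON, on log2(value + 0.5) for the 7 tested members (x axis), with the values as deposited (black; line, 95% interval), at equal library totals (blue squares) and with the transcript length trend removed (red triangles). SKIL is at -0.65 as deposited and ID1 at -0.69, both just past the 1.5-fold line, which both miss at equal totals and which ID3 passes, at 0.68, only with the length trend removed.

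The levels of the members differ widely per kb of canonical transcript, and their order depends on the length taken for each. SMAD2 was left out, its canonical transcript of 34.6 kb being far longer than the next, that of SMAD4 at 8.77 kb. ID3 was the highest, at 59.0 ± 4.99 TMM signal per kb in siYT and 48.2 ± 3.23 in siCON cells, followed by SMAD3 at 21.4 ± 1.26 in siYT and 22.3 ± 0.250 in siCON cells. ID1 came next, at 10.9 ± 0.493 in siYT and 17.9 ± 0.707 in siCON cells (SD, n = 4 and n = 3 throughout). SMAD4, SKIL and SMAD7 formed the middle. SKIL had 5.35 ± 0.614 per kb in siYT, below SMAD4 at 6.44 ± 0.251, but 8.44 ± 0.746 in siCON cells, above SMAD4 at 6.07 ± 0.343. SKIL and SMAD7 (4.47 ± 0.284) overlapped in siYT libraries. ID2, at 1.12 ± 0.101 per kb in siYT and 0.221 ± 0.103 in siCON cells, and SMAD6, at 0.0655 ± 0.0216 in siYT and 0.0755 ± 0.0702 in siCON cells, were the lowest and overlapped each other in siCON libraries only.

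The start-site sequences of the members that differed most between siYT and siCON cells are shown so that ID1 and SKIL, which fell, can be read beside ID2 and ID3, which were higher. They are RefSeq windows on GRCh38.p14 from 250 bases before to 50 after the start, 5′ to 3′ on the gene's strand: chr20:31605039-31605338 (plus) for ID1, chr3:170357465-170357764 (plus) for SKIL, chr2:8681806-8682105 (plus) for ID2 and chr1:23559452-23559751 (minus) for ID3. Capitals mark the SMAD box GTCT or its complement AGAC, the GC-rich BMP-SMAD element GGCGCC, the TEAD motif GGAATG or its complement CATTCC, and the E-boxes CACGTG and CAGCTG.
ID1: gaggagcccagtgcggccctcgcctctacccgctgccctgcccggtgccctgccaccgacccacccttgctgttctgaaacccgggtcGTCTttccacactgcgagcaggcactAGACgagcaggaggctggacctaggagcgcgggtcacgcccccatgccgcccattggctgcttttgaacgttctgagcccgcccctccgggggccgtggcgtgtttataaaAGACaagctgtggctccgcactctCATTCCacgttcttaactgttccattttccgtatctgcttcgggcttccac
SKIL: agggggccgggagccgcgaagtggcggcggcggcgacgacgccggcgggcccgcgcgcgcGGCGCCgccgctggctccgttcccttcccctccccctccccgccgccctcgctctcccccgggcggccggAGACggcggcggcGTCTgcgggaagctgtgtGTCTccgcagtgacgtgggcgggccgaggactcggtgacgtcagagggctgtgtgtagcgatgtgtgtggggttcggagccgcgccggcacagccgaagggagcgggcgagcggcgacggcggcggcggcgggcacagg
ID2: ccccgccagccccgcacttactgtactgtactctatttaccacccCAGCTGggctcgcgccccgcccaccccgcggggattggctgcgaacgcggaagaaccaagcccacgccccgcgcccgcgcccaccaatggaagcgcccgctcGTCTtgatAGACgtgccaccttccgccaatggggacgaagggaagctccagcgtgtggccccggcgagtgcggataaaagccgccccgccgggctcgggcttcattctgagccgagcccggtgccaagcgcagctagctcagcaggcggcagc
ID3: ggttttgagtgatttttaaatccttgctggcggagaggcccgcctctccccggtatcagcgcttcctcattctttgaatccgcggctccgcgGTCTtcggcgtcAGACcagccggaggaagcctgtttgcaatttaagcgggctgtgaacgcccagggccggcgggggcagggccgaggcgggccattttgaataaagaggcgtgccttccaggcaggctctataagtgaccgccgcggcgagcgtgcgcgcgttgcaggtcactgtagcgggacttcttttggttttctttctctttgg

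Searched on both strands, the SMAD box was in 84.0% of all 35116 promoter windows, so its 3 matches in ID1, 3 in SKIL, 2 in ID2 and 2 in ID3 tell little apart. The TEAD motif was in 14.0% of all windows and among these 4 in ID1 only, beginning at the base before the start. SKIL held GGCGCC (19.2% of all windows) and ID2 held CAGCTG (18.0%), while CACGTG (7.26%) was in none of the 4. The windows of SKIL and ID2 were GC-rich, with 79.0% and 69.0% G or C, beside 62.7% for ID1, 59.7% for ID3 and a median of 58.7% over all windows. The SMAD palindrome GTCTAGAC, made of a SMAD box followed directly by its complement, was in 0.202% of all windows and, among the members, only in that of SMAD6, 12 bases before the start; the stretch is shown because the match is rare. A match is a description of letters and not of binding.
SMAD6 (chr15:66702210-66702250, plus strand): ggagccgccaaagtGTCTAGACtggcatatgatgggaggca

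The partners of the members were read from lists chosen by function, and their counts of calls stand beside 14.1% upward and 13.2% downward over all genes tested. Of the other SMADs and SKI (4 genes, 3 with a row, all tested), 1 rose and 2 were not called. SMAD5, which carries the BMP signal, averaged 140 ± 2.47 in siYT and 73.2 ± 3.93 in siCON cells (SD, n = 4 and n = 3), a log2 fold change of 0.93 ± 0.050 (SE) with a limma adjusted p of 2.44e-10, and was called under each of the 19 alternatives. SMAD1, of the same branch, averaged 33.3 ± 1.67 in siYT and 24.3 ± 1.90 in siCON cells (0.45, limma adjusted p 2.47e-05), under the fold threshold. SMAD9 had no row.

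Among 20 modifiers and anchors of SMADs, all of them tested, 1 rose and 0 fell with limma (median 0.13), fewer calls than the 14.1% upward and 13.2% downward of all genes. At equal totals 3 were called upward, and with the length trend removed 0 upward and 1 downward. FAM83G, which anchors casein kinase and was described with SMAD1, averaged 113 in siYT and 72.8 in siCON cells (0.64, limma adjusted p 6.43e-08). The members of this list with the highest levels were not called: FKBP1A, which holds TGF-beta type I receptors inactive, averaged 361 in siYT and 470.5 in siCON cells (-0.38, limma adjusted p 1.09e-05), and the deubiquitinase USP9X averaged 178 in siYT and 164 in siCON cells (0.12, limma adjusted p 0.0505). 

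Of 20 nuclear partners 15 were tested, and 5 rose and 0 fell with limma (median 0.23), beside 14.1% upward and 13.2% downward of all genes. With the length trend removed 2 were called upward and 1 downward. FOXO1, a forkhead partner of SMAD3, averaged 75.0 in siYT and 29.4 in siCON cells (1.34, limma adjusted p 1.94e-11), and the histone acetyltransferase CREBBP averaged 77.6 in siYT and 48.1 in siCON cells (0.68), a call that was lost with the length trend removed (0.51).

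Genes known to respond to the 2 branches moved in both directions. Of the 27 tested TGF-beta and activin response genes, 7 rose, 5 fell and 15 were not called (median -0.36), beside 14.1% upward and 13.2% downward of all genes. With the length trend removed the downward calls were 8. TAGLN, an actin-binding protein, averaged 37.4 ± 11.5 in siYT and 469 ± 27.9 in siCON cells (-3.68), and PTHLH, a parathyroid hormone-like factor, averaged 4.36 ± 0.197 in siYT and 38.7 ± 3.48 in siCON cells (-3.01). The gelatinase MMP2 rose (1.81), as did the repressor KLF11 (1.66).

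Of the 12 tested BMP response genes, which include ID1, ID3 and SMAD7, 5 rose, 2 fell and 5 were not called (median 0.33), beside 14.1% upward and 13.2% downward of all genes. The downward calls were 1 at equal totals, with a minimum mean of 5 or with the length trend removed. DLX5, a homeobox factor, averaged 14.4 ± 1.02 in siYT and 4.02 ± 0.610 in siCON cells (1.73), and KLF4, a factor of epidermal differentiation, averaged 181 ± 18.4 in siYT and 79.2 ± 0.333 in siCON cells (1.19). GATA3 also rose (1.03). The 2 that fell were ID1 itself and the BMP antagonist GREM1, at 1.45 ± 0.764 in siYT and 6.40 ± 0.470 in siCON cells (-1.90).

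Upstream of the SMADs, 22 ligands, receptors and antagonists were tested, of which 5 rose and 6 fell (median 0.22), beside 14.1% upward and 13.2% downward of all genes. The ligand TGFB2 averaged 1.91 ± 0.987 in siYT and 73.1 ± 8.22 in siCON cells (-5.01), THBS1, which activates latent TGF-beta, averaged 96.1 ± 34.4 in siYT and 1494 ± 105 in siCON cells (-4.01), and the activin antagonist FST averaged 11.4 ± 1.79 in siYT and 90.0 ± 3.66 in siCON cells (-2.93). All 3 fell. The activin ligand INHBA also fell, averaging 143 ± 16.7 in siYT and 507 ± 34.3 in siCON cells (-1.83). FSTL3 averaged 158 ± 5.87 in siYT and 275 ± 13.9 in siCON cells (-0.80), and GREM1 fell as well (-1.90). Among those that rose, the co-receptor TGFBR3 averaged 27.4 ± 0.976 in siYT and 11.5 ± 1.14 in siCON cells (1.23). The ligand BMP2 averaged 24.6 ± 4.18 in siYT and 12.5 ± 0.424 in siCON cells (0.93). The scarce ligand BMP4 averaged 2.87 ± 0.590 in siYT and 0.632 ± 0.0995 in siCON cells (1.56). BMP4 was below 1 in every siCON library and reached the minimum for testing only through the siYT libraries. Its log2 fold change ran from 0.88 to 2.01 over the alternatives.

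Of the bHLH factors listed, 16 were tested, of which 3 rose and 0 fell with limma (median 0.00899). Over all genes, 14.1% were called upward and 13.2% downward. The list also holds factors other than E proteins, such as MAX and HIF1A, so its counts are not those of ID partners alone. E proteins are the direct partners of ID1, ID2 and ID3. TCF4 averaged 27.0 ± 1.41 in siYT and 17.5 ± 1.14 in siCON cells (0.62, limma adjusted p 1.07e-06), a call that was lost with a pseudocount of 2, without siCON C or with the length trend removed. TCF3 averaged 92.5 ± 6.99 in siYT and 99.7 ± 5.03 in siCON cells (-0.11, limma adjusted p 0.122), and TCF12 averaged 100.3 ± 2.65 in siYT and 88.4 ± 4.77 in siCON cells (0.18, limma adjusted p 0.00500); neither was called. The repressor BHLHE41 (1.01) and the tissue-restricted factor ASCL2 (0.89) rose, both at low levels.

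**Figure D4:**
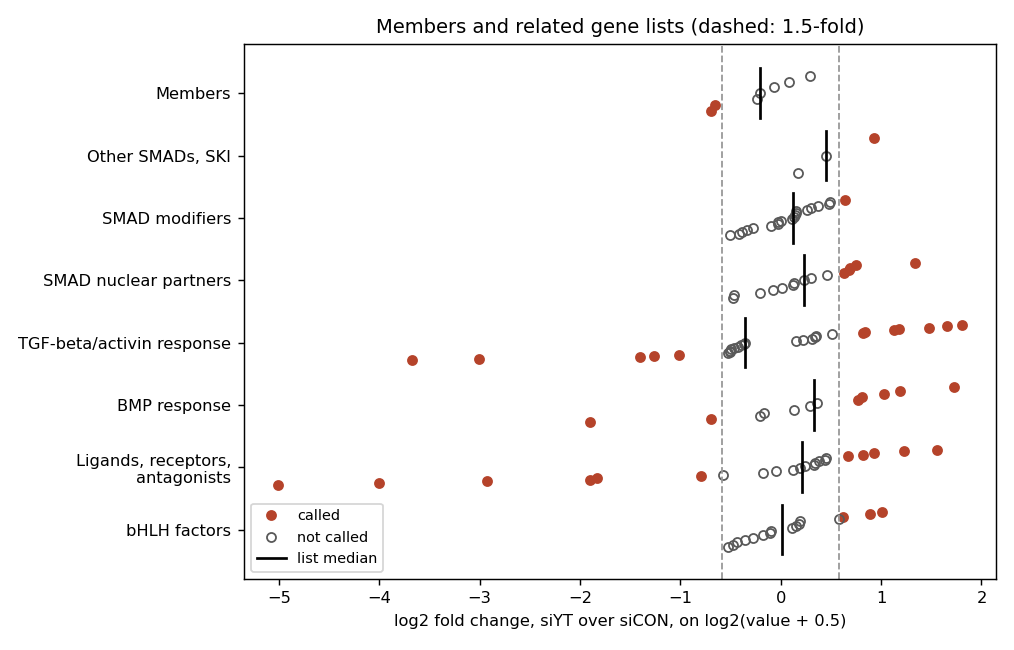
Log2 fold change, siYT over siCON, on log2(value + 0.5) (x axis) of each tested gene in the 8 lists (points, filled where called; black line, list median; dashed lines, 1.5-fold). The 7 tested members span -0.69 to 0.29, while TGFB2 among the ligands reaches -5.01 and MMP2 among the response genes 1.81.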

How the data were processed

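Poly(A) RNA of 7 libraries was sequenced by the authors and deposited as a TMM-normalized signal per gene, with no counts. Their processing notes name cutadapt 1.18, STAR 2.6.1, Partek 8.0.19.0819 and hg19; genes under 8 reads had been removed. A second deposited file holds the authors' own comparison (p-values, fold changes and group means) and was not used. Of low-gene values, 82.3% were whole multiples of the library's lowest value within 0.05, too few to recover reads, and count models were not used; the approximate depth is a library's total divided by that value, and the precision of genes near the lowest value is limited by few reads.

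The 1792 repeats among 18478 entries were dropped. Genes averaging at least 1 were compared between siYT and siCON by limma 3.58.1 (R 4.3.3, mean-variance trend) on log2(value + 0.5), adjusted over all 13072 genes by Benjamini-Hochberg and checked on simulated data. Thresholds were an adjusted p of 0.05 and 1.5-fold, after the study. Ratios were compared with an exact permutation test. Lengths are canonical transcripts of the GENCODE annotation lifted to GRCh37, found for 81.1% of symbols. Sequences are from RefSeq (GRCh38.p14), and all 10 members matched.

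Members and lists were chosen with earlier results of these data known; 141 of 174 list genes had a row. The genes named were all members, YAP1, WWTR1, and per list up to 4 called genes with the largest change. Lists with fewer than 2 called added the 2 genes with the highest mean, and only some of all these are described. SMAD1, TCF3, TCF12, ELAC1, AC011747.7, BMP2, BMP4, TGFBR3, INHBA, FSTL3 and the cell type markers were added after their values were seen. Alternatives were 19: pseudocount, low-value filter, scaling, trend, replicate block, a residual component, transcript length, siYT A and B averaged, and leaving out each library.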

Additional observations from a re-analysis of the deposited data

Results flagged for a closer look

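SMAD7 in siYT D, at 16.3, stood apart from the other 3 siYT libraries, at 14.2 to 14.6. Its gap to the nearest library was 0.832 of the range of the group, just over Dixon's critical value for 4 samples. Chance gives such a value in about 1 in 20 groups, and 11 genes were examined. Without siYT D the log2 fold change of SMAD7 was -0.25, with a limma adjusted p of 0.0105.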

How the results depend on the processing

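The count of 2 called members was 0 with libraries at equal totals, where SKIL (-0.54) and ID1 (-0.58) kept their direction but missed 1.5-fold; this scaling moved the median of all genes by 0.107 and the share of calls that were upward to 64.6%, beside 51.6% as deposited. With the length trend removed only the 11547 genes with a length were tested, 60.1% of calls were upward, ID1 was at -0.31 and ID3 at 0.68, and the 2 members called were SKIL and ID3. Without a low-value filter 3 were called, with ID2. The count was 2 without each library in turn, and 2 with the replicate block; over all genes it was 3528 with the block, 3483 to 3755 leaving out a library and 2824 to 4001 over the 19 alternatives. It was not settled whether same letters pair the libraries. Deviations of siYT and siCON libraries of the same letter correlated at 0.157 (A), 0.0254 (B) and 0.183 (C). The value for C was the highest of any siYT and siCON pair, while siCON A was closest to siYT B (0.176). The leading residual component, 32.1% of the residual variance, was positive in siYT A, siYT B and siCON A and negative in the others. What it reflects was not tested, and 2 members were called with it as a covariate. siYT A and B differed by 1.71 times their counting variance, other pairs of a group by 3.83 to 6.89 times. siYT A and B were thus the closest pair, and whether they are technical repeats cannot be told. The main fit kept them as separate libraries, and with them averaged the count of called members was 2.

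SMAD3 turned to 0.046 at equal totals and SMAD4 to -0.067 with the length trend removed. SMAD6 turned to 0.028 with a pseudocount of 0.1 and to 0.011 at equal totals, and leaving out a library gave -0.16 to 0.24, or -0.25 to 0.11 for its ratio to SMAD4. SMAD6 and ID2 are limited by depth. The causes were not tested.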
